A study of Mus musculus with 2 samples.

Results

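The 35 genes described here are cell cycle genes of the mouse, chosen by name and read in 2 sets from the 31253 genes of the UMI count tables. The choice was made with earlier results of these data known. The S-phase set holds 12 genes: Mcm2 to Mcm7, Pcna, Tyms, Rrm1, Rrm2, Tk1 and Pclaf. The mitotic set holds 23 genes, of which 21 were used in sums and calls. Stmn1 and Hmgb2, which many cells also express outside mitosis, were read one by one. A UMI is a molecular tag that marks 1 captured RNA molecule, and a level is given as CPM, the gene's UMIs scaled to a fixed total of all UMIs of the same cells.

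Both libraries hold CD45+ leukocytes sorted from livers of C57BL/6 mice with intrahepatic cholangiocarcinoma (iCCA), a tumour arising from bile duct cells. Tumours were raised by hydrodynamic injection of transposon vectors for Myr-AKT and YAPS127A, which both groups received. From 7 days later the NAV group was given NAV2729, an inhibitor developed against the GTPase ARF6, at 30 mg/kg every other day for 7 days, and the MOCK group was mock-treated, without NAV2729. Each group is 1 BD Rhapsody single-cell library of pooled tumours (6 per group by one description, 3 by another). The animals cannot be told apart within a pool, so no test between the groups was possible. Intervals are exact 95% intervals of counting error only, and they treat UMIs as independent although UMIs of 1 gene can share a cell. Members can share cells too, so a count of members is not a count of independent results.

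After filtering, 10217 MOCK and 9987 NAV cells were analysed, with medians of 3738 and 2048 UMIs. Only 5 barcodes occurred in both tables. Ptprc, which encodes CD45, had a UMI in 86.4% and 83.7% of cells without a mitotic call, and in 88.0% and 86.7% of cells with one. Classes were built without cell cycle genes, so that these genes would not draw dividing cells out of their class, and were named "X-like" from marker lists. Clusters removed as doublets also held barcodes with a mitotic call. A neutrophil-marker cluster led by Siglecf (875 and 2623 cells) stayed unnamed.

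Before a cell divides it copies its DNA in S phase and parts the copies in mitosis. The Mcm proteins form the helicase that is loaded onto replication origins, Pcna clamps the polymerase to DNA, and ribonucleotide reductase, thymidylate synthase and thymidine kinase supply nucleotides. In G2 and mitosis, cyclin A2 and the B cyclins switch on Cdk1, kinesins and centromere proteins build and attach the spindle, and the anaphase-promoting complex ends the phase. In liver tumours, resident macrophages, dendritic cells and lymphocytes can all divide in place, whereas neutrophils no longer divide.

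Promoters show how the 2 sets differ before any expression value is read. RefSeq promoter sequences on GRCm38.p6 (250 bases before and 50 after a start site) were matched for 30 of the 35 members, and none was matched for Aurkb, Ccna2, Mcm4, Tpx2 and Stmn1. The cell cycle homology region (CHR), the element through which the DREAM and MuvB complexes time mitotic genes, was searched as TTTGAA or TTCGAA on both strands. It was in 15 of 18 mitotic promoters (83.3%), 2 of 11 S-phase promoters (18.2%) and 19.4% of all 27025 promoters. The CCAAT box, bound by NF-Y, was searched as CCAAT on both strands and was in 15 of 18 mitotic and 9 of 11 S-phase promoters, against 37.9% of all. CHR and CCAAT occurred together in 13 of 18 mitotic promoters (72.2%), in 2 of 11 S-phase promoters and in 7.70% of all. E2F sites were searched as TTTCCCGC, TTTCGCGC, TTTGCCGC and TTTGGCGC on both strands. They were in 5 of 11 S-phase promoters (45.5%), 2 of 18 mitotic ones (11.1%) and 2.32% of all. E2F matches of opposite strands can overlap each other. The mitotic counts leave out Stmn1 and Hmgb2, and a match is a run of letters, not a measured binding site.

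The 150 bases before the start site are printed for 4 mitotic members with a CHR and a CCAAT box and for Mcm6, an S-phase member with E2F sites. They lie on GRCm38.p6 as follows: Cdk1 at chr10:69352913-69353062 (minus strand), Cdc20 at chr4:118437344-118437493 (minus strand), Ube2c at chr2:164769779-164769928 (plus strand), Kif11 at chr19:37376232-37376381 (plus strand) and Mcm6 at chr1:128359706-128359855 (minus strand). Sequences run 5′ to 3′ toward the start site, and capitals mark CHR, CCAAT and E2F matches on either strand (TTCAAA and ATTGG are CHR and CCAAT read on the other strand).
Cdk1: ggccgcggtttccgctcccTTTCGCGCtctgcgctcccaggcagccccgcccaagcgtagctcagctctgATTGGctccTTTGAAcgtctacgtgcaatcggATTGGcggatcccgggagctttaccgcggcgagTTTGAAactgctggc
Cdc20: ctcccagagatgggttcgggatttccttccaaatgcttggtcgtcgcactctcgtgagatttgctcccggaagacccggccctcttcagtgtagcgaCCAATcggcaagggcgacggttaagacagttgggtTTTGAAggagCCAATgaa
Ube2c: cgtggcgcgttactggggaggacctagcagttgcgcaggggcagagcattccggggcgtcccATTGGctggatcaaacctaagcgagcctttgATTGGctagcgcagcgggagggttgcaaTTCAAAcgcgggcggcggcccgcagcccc
Kif11: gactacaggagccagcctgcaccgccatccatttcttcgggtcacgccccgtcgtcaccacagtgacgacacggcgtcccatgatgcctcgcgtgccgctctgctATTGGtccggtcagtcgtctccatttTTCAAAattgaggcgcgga
Mcm6: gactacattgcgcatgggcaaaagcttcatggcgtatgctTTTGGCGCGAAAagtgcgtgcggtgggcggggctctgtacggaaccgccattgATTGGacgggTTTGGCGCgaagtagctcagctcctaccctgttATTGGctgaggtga
In Cdk1, Cdc20, Ube2c and Kif11 a CHR lay at positions -15, -18, -29 and -19 from the start site. Cdk1 also carried an E2F site at -131 and a further CHR at -71.

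Cells were then called by phase. A cell was S-positive with a UMI of at least 2 different S-phase members, and mitosis-positive with a UMI of at least 2 of the 21 mitotic members, after every cell had been thinned to 1000 UMIs. In MOCK, 668 of 9373 cells were S-positive (7.13%, interval 6.61% to 7.67%). In NAV, 634 of 8707 were (7.28%, 6.74% to 7.85%). The S-positive shares differed by less than their counting error, with a log2 ratio of NAV to MOCK of 0.03 (-0.13 to 0.19). Its sign turned in 4 of 8 other settings.

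Mitosis-positive cells were scarcer in the NAV library. They numbered 324 in MOCK (3.46%, 3.10% to 3.85%) and 210 in NAV (2.41%, 2.10% to 2.76%), a log2 ratio of -0.52 (-0.78 to -0.26). The size moved with the thinning depth, from -0.88 at 500 UMIs to -0.31 at 2000 UMIs, and was -0.83 unthinned, where 10.3% and 5.83% of cells were positive. Cells positive for both phases numbered 157 and 91, a log2 ratio of -0.68 (-1.07 to -0.30). In neutrophil-like cells, which serve as the background, the mitosis-positive shares were 0.202% (2 of 991) and 0.210% (1 of 477), and the S-positive shares 0.505% and 0.210%, at median depths of 1384 and 1336 UMIs. The intervals of both shares over all cells lay above those of the neutrophil-like cells.

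The mitosis-positive share differed widely between classes. Among the classes with at least 100 cells in each library, it was highest in cDC2-like dendritic cells (10.7% MOCK, 9.46% NAV) and CD8 T-like cells (9.09% and 9.68%). Macrophage-like cells (5.14% and 3.27%), NK-like cells (4.26% and 3.88%) and Kupffer-like cells (4.21% and 3.34%), named after the macrophages that reside in liver sinusoids, came next. B-like cells (1.21% and 1.82%), nonclassical monocyte-like cells (0.755% and 0.427%) and classical monocyte-like cells (0.282% and 0.478%) were low. The intervals of the cDC2-like and CD8 T-like cells overlapped in each library, as did those of the macrophage-, NK- and Kupffer-like cells. Smaller classes also held mitosis-positive cells: cDC1-like cells (8 of 77 in MOCK, 10 of 105 in NAV), CD4 T-like cells (3 of 47 and 5 of 63), ILC2-like cells (1 of 20 and 2 of 26) and an unnamed lymphoid cluster led by Klrh1 and Cd8a (5 of 22 and 5 of 50). No pDC-like cell was mitosis-positive (0 of 40 and 0 of 124, with exact upper bounds of 8.81% and 2.93%, and 3 counts of the total would be 7.50% and 2.42%).

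Only in macrophage-like cells did the interval of the mitotic ratio leave out 0, among the classes of at least 100 cells. There, 163 of 3174 MOCK and 57 of 1741 NAV cells were positive, a log2 ratio of -0.65 (-1.11 to -0.21), and the ratio stayed between -0.89 and -0.32 in 8 other settings. For Kupffer-like cells the ratio was -0.33 (-1.48 to 0.67), for cDC2-like cells -0.18 (-0.79 to 0.44) and for CD8 T-like cells 0.09 (-1.03 to 1.29). Whether the macrophage ratio differs from these was not tested, and their intervals overlap it. Both macrophage clusters leaned the same way. The cluster led by Slco2b1 and Ms4a7 had 6.91% in MOCK and 5.64% in NAV, and the cluster led by Arg1 and Gpnmb had 3.25% and 1.19%.

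S-positive shares ordered the classes differently. Among the classes with at least 100 cells in each library, CD8 T-like cells were highest (25.6% MOCK, 30.9% NAV), with intervals above those of the cDC2-like cells (12.0% and 16.4%) in each library. NK-like cells (19.1% and 17.5%) lay between, with intervals that overlap those of the cDC2-like cells. Of the smaller classes, cDC1-like cells had 12.99% and 22.9% and CD4 T-like cells 14.9% and 20.6%. Other T-like cells, led by Lef1 and Tcf7, went the other way, with 17.9% in MOCK (14 of 78) and 9.72% in NAV (14 of 144). Of these T-like cells, 1 and 0 were mitosis-positive. B-like cells had S-positive shares of 8.36% and 10.4%, against mitotic shares of 1.21% and 1.82%. Of the S-positive B-like cells, 63 of 69 in MOCK and 90 of 103 in NAV had exactly 2 members, the minimum for the call. Over all cells, 441 of 668 and 427 of 634 did. Whether cells at this minimum were in S phase was not tested. The log2 ratio was 0.45 (-0.07 to 0.99) in cDC2-like cells and -0.27 (-0.58 to 0.03) in macrophage-like cells, and each interval held 0.

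**Figure D1:**
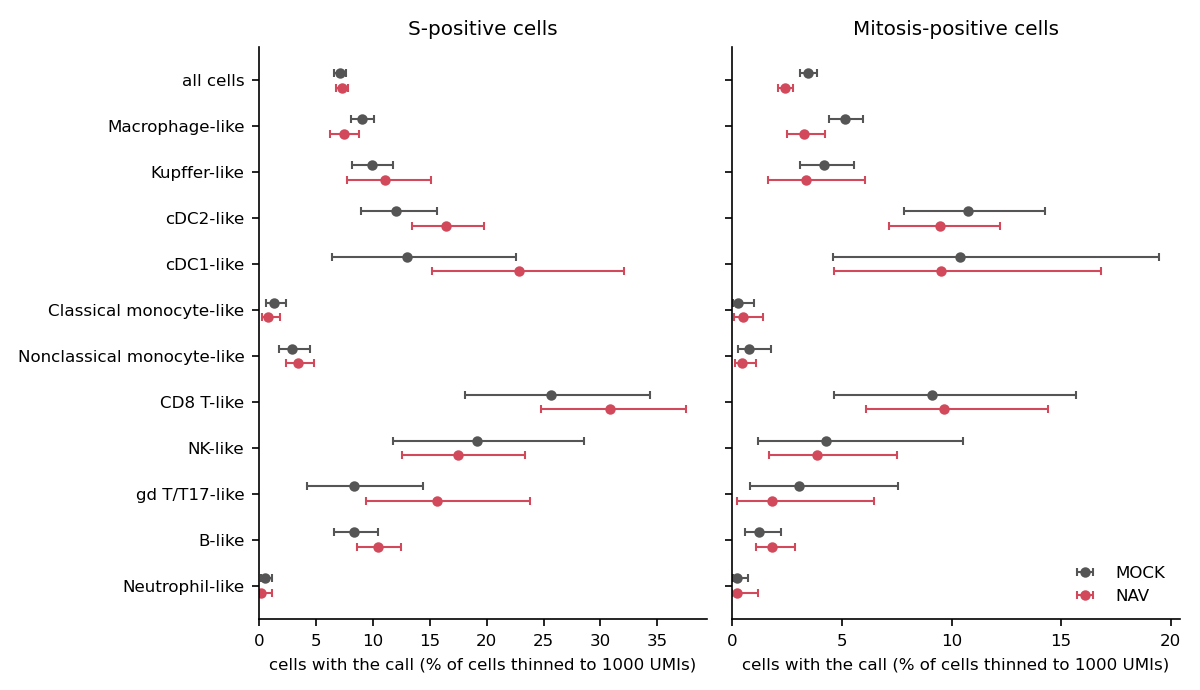
Share of S-positive (left) and mitosis-positive cells (right) in percent of cells thinned to 1000 UMIs, for all cells and by class, in the MOCK (grey) and NAV library (red). Bars are exact binomial 95% intervals, and the mitotic intervals of the 2 libraries part over all cells (3.46% and 2.41%) and in macrophage-like cells (5.14% and 3.27%).

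The class make-up of the dividing cells also differed between the libraries. Macrophage-like cells were 50.3% of the mitosis-positive cells of MOCK (44.7% to 55.9%) and 27.1% of those of NAV (21.2% to 33.7%). Kupffer-like cells were 14.2% and 4.76%. cDC2-like cells were 12.96% and 25.2%, and B-like cells 3.09% and 8.57%. CD8 T-like cells were 11 of the 324 and 21 of the 210 cells. Sorting and capture can also set how many cells of each class were read. With MOCK's class shares applied to NAV's class make-up, the mitosis-positive share was 3.03%, and with NAV's class shares on MOCK's make-up it was 2.60%. Both lay between the measured 3.46% and 2.41%.

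**Figure D2:**
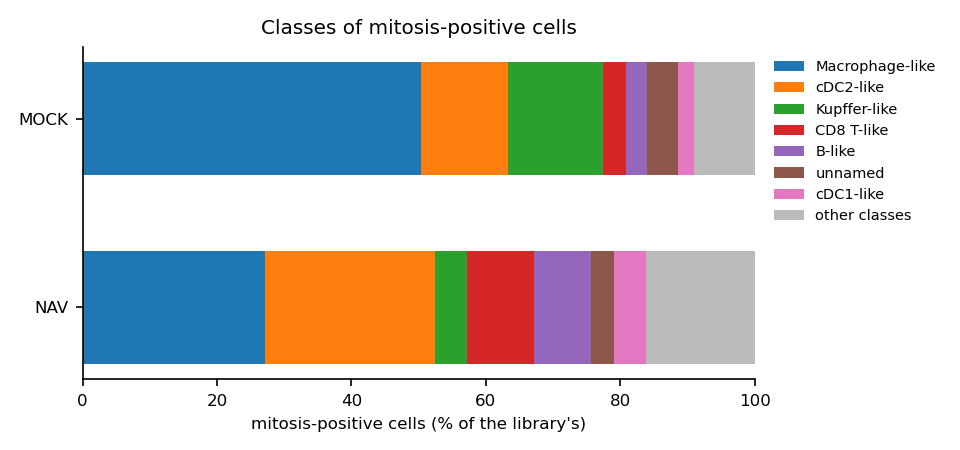
Class make-up of the mitosis-positive cells, in percent of the 324 MOCK and 210 NAV cells. Macrophage-like cells (blue) take up 50.3% of the MOCK bar and 27.1% of the NAV bar, and cDC2-like cells (orange) 12.96% and 25.2%.

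Mitosis-positive cells were deeper than the other cells, with medians of 7579 against 4031 UMIs in MOCK and 5566 against 2556 in NAV. Hepatocyte markers summed to 362 CPM in mitosis-positive and 520 CPM in other MOCK cells, and to 197 and 269 CPM in NAV, with 5 and 3 of the 10 list genes above 0 in the mitosis-positive cells. T-cell markers summed to 282 and 133 CPM in MOCK and 790 and 326 CPM in NAV. The part of depth and of mixed droplets in the calls was not tested.

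How sharply each member marked its phase was read from cells called without it. The level of a member in mitosis-only cells was divided by that in S-only cells, over both libraries. The helicase subunits were the most S-bound members. Mcm6 had 60.2 CPM in mitosis-only and 268 CPM in S-only cells, a log2 ratio of -2.15 (-2.44 to -1.87). Mcm4 and Mcm2 both had -1.60, Mcm3 -1.19, Mcm5 -1.16, Pcna -0.94 and Mcm7 -0.87. The nucleotide enzymes formed a middle group. Tk1 (0.06, -0.27 to 0.39) did not differ beyond counting error, and Rrm1 (0.30), Rrm2 (0.64) and Tyms (0.82) were higher in the mitosis-only cells. Pclaf, a Pcna-binding protein counted here as S-phase, reached 1.53 (1.36 to 1.71), the value of the mitotic-set member Stmn1 (1.53).

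The mitotic members ranged from 1.69 for Hmgb2 to 4.53 for Ube2c, apart from Stmn1. Ube2c, the ubiquitin-conjugating enzyme of the anaphase-promoting complex, had 335 CPM in mitosis-only and 14.5 CPM in S-only cells. Plk1 (4.52, 2.44 to 7.68), a mitotic kinase with few UMIs, Cenpf (4.33), Ccnb2 (4.33) and Cdc20 (4.10), the activator of the same complex, had the next highest ratios, and the intervals of all 5 overlap. Cenpe (3.61), Birc5 (3.64), Ccnb1 (3.37), Tpx2 (3.33) and Ccna2 (3.07) came next. Cdk1 (1.83), Top2a (1.97) and Aurka (1.71) were at the lower end. In all, 11 of the 23 mitotic-set members had a higher level in cells positive for both phases than in mitosis-only cells, among them Cdk1 (197 and 136 CPM), Top2a (789 and 437 CPM) and Mki67 (594 and 496 CPM). Of the 12 S-phase members, 12 had a higher level in cells positive for both phases than in S-only cells. The order of the members was read in both libraries together, and the sign was the same in each library for 31 of them. The exceptions were Tk1, Rrm1, Rrm2 and Aurka.

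The members differed in how much of their RNA lay outside cells with a call. For Ccna2, 9.06% of UMIs were in cells with neither call, for Pclaf 11.8%, for Rrm2 14.4% and for Birc5 14.6%. For Cenpa the figure was 78.7%, for Pcna 77.1%, for Hmgb2 68.4% and for Mcm4 64.3%. Cenpa, which encodes the histone of the centromere, had 76.5 CPM in cells with neither call and 355 CPM in mitosis-only cells. Hmgb2, a chromatin protein, had its highest levels in neutrophil-like cells (1112 and 1210 CPM) and CD8 T-like cells (1115 and 1040 CPM), of which the first had almost no mitosis-positive cell.

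**Figure D3:**
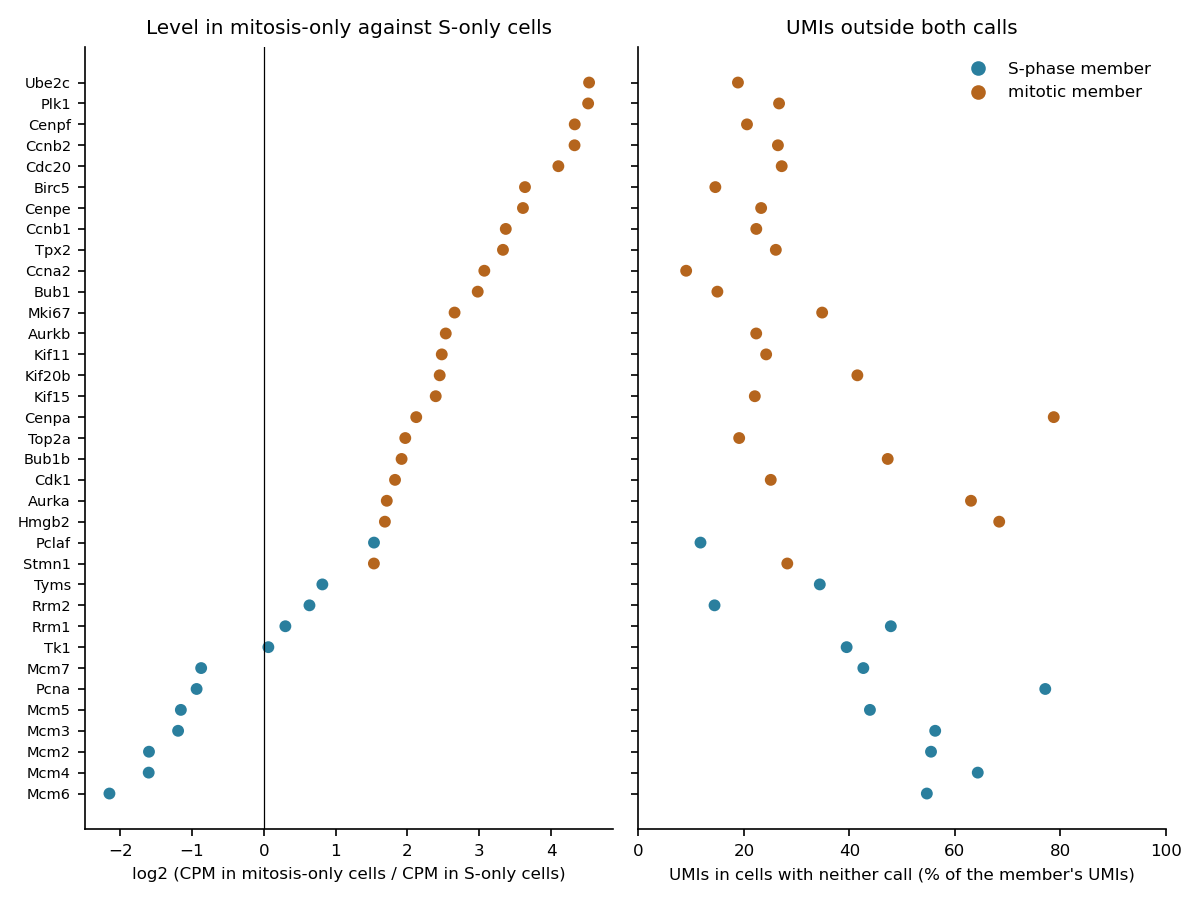
Left, log2 ratio of each member's CPM in mitosis-only against S-only cells, with the member left out of its own call. Right, percent of its UMIs in cells with neither call. S-phase members are blue and mitotic members brown: the Mcm genes and Pcna lie below 0, down to -2.15 for Mcm6, and Ube2c is highest at 4.53.

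The summed levels of the 2 sets parted between the libraries. Class make-up also differed between them, and its part in the all-cell sums and ratios was not tested. Over all cells the S-phase sum was 596 CPM in MOCK and 612 CPM in NAV, a log2 ratio of 0.04 (0.01 to 0.07). The mitotic sum was 397 and 294 CPM, a log2 ratio of -0.43 (-0.47 to -0.40). A gene was counted as lower or higher in NAV where it had at least 20 UMIs, a difference of at least 1.5-fold and an interval without 0. So counted, 10 of 21 mitotic members were lower and 0 higher, against 10.9% lower and 9.42% higher among all 13860 genes tested. Of the 12 S-phase members 2 were lower and 0 higher. The ratio lay below 0 for 20 of the 21 mitotic members, with a median of -0.58 against 0.06 over all tested genes, and Cenpa (0.05, -0.02 to 0.13) was the exception. The S-phase sum sat so near 0 that its sign turned with median-of-ratios scaling (-0.02) and without Pcna (-0.06).

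The S-phase members counted as lower were Tk1 and Rrm2, both of nucleotide supply. Tk1, the thymidine kinase, had 852 UMIs in MOCK and 230 in NAV (20.1 and 7.86 CPM), a log2 ratio of -1.36 (-1.57 to -1.15). Of these, 437 and 92 UMIs were in Kupffer-like cells, which numbered 1124 and 304 and where Tk1 itself was at 54.5 and 49.7 CPM (-0.14, -0.48 to 0.19). Rrm2, the regulated subunit of ribonucleotide reductase, had 897 and 411 UMIs (-0.59, -0.77 to -0.42), and Pclaf 1705 and 926 (-0.35, -0.47 to -0.23). Mcm2 (0.27), Pcna (0.20), Mcm4 (0.15), Mcm6 (0.13) and Mcm5 (0.11) lay above 0, and Mcm3 (-0.12) and Mcm7 (-0.13) below, all under 1.5-fold. Rrm1 was at -0.07 and Tyms at 0.12, with intervals holding 0.

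Cyclins and their partners were among the lower mitotic members over all cells, a pool whose class make-up differed between the libraries. Ccna2 had 891 UMIs in MOCK and 294 in NAV (-1.07), Ccnb1 252 and 92 (-0.92), Cdk1 765 and 310 (-0.77) and Ccnb2 534 and 247 (-0.58, just under the fold). Of the exit machinery Ube2c was at 988 and 320 UMIs (-1.09, -1.28 to -0.91), whereas Cdc20 was at 228 and 126 (-0.32). Of the centromere and chromosomal passenger genes, Cenpf (-0.99), Cenpe (-0.81), Aurkb (-0.68) and Birc5 (-0.64) were lower. The checkpoint kinase Bub1 (-0.66) was lower, and its relative Bub1b (-0.38) was under the fold. The kinesin genes Kif20b (-0.54), Kif15 (-0.50) and Kif11 (-0.45) and the spindle gene Tpx2 (-0.36) were under the fold. Mki67, the proliferation marker, had 2363 and 1139 UMIs (-0.52), Top2a, the topoisomerase that untangles chromosomes, 2136 and 1198 (-0.30), and Aurka 204 and 131 (-0.11, -0.43 to 0.22). Plk1 had 34 and 11 UMIs and was lower (-1.10, -2.23 to -0.08). Stmn1 (-0.15) and Hmgb2 (0.08) were close to 0, and with both added the mitotic sum was at -0.14.

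Macrophage-like cells (3289 and 1793) had the most mitotic members lower in NAV among the classes with at least 100 cells in each library. Fewer members were tested in NK-like (6 of 8 lower, 5.9% of all genes lower) and nonclassical monocyte-like cells (9 of 14, 9.79%). Of 20 mitotic members tested in macrophage-like cells 16 were lower in NAV and 0 higher, against 10.3% of 11555 genes lower. All 20 ratios were below 0. The sum was 476 CPM in MOCK and 278 CPM in NAV (-0.78, -0.84 to -0.71). The median member was at -0.86 and the median tested gene at -0.01. Ccna2 was at 26.9 and 10.3 CPM (-1.38, -1.73 to -1.05). Kif15 and Aurkb were both at -1.25, Mki67 at -1.18, Ube2c at -1.16, Kif11 at -1.06 and Cdk1 at -1.02. Cdc20 stood apart at 5.39 CPM in each library (-0.00, -0.54 to 0.52), and Aurka was at -0.13. Of the S-phase set Tk1 (-1.51), Rrm2 (-1.47) and Pclaf (-0.97) were lower and 0 of 12 higher (3.33% of all genes higher), while Mcm2, Mcm4 and Mcm6 were at -0.02, -0.09 and -0.12 with intervals holding 0. The S-phase sum was at -0.17 (-0.22 to -0.12) and turned to 0.09 when cells were clustered with the cell cycle genes, where the mitotic sum was -0.34.

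GC-rich genes read lower in the NAV library. With genes put into 10 groups of similar size by the GC content of their last 500 transcript bases, the richest group had a median log2 ratio of -0.33 in macrophage-like cells, and the other 9 groups had medians between -0.09 and 0.04. Mitotic members had a median GC group of 5. After subtracting the median of each member's own GC group, their median was -0.90 in macrophage-like cells and -0.67 over all cells. Tk1, in the richest group, went from -1.51 to -1.17.

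Kupffer-like cells (1124 and 304) had 6 of 20 mitotic members lower and 0 higher (8.28% of all genes lower, 2.7% higher). Their mitotic sum was 317 and 215 CPM (-0.56, -0.72 to -0.41), while the S-phase sum was 716 and 714 CPM (-0.00, -0.09 to 0.08), with 1 of 12 members lower. Ube2c had 160 UMIs in MOCK and 5 in NAV (-2.89), Ccnb1 48 and 3 (-1.89), Ccna2 148 and 11 (-1.64) and Cenpf 77 and 6 (-1.57). Mki67 was under the fold (-0.45). In NAV, 8 cells held 50% of the mitotic UMIs of the class. With doublets kept, 10 members were lower.

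cDC2-like cells (402 and 567) had a higher S-phase sum in NAV and a mitotic sum near that of MOCK. The S-phase sum was 838 CPM in MOCK and 1107 CPM in NAV (0.40, 0.32 to 0.49) and lay between 0.36 and 0.53 in 9 other settings. Of the 12 members 11 had a ratio above 0, and 2 were counted as higher (4.19% of all genes): Tyms, with 36 and 83 UMIs (0.85, 0.27 to 1.45), and Mcm2, with 52 and 103 (0.63, 0.13 to 1.14). Mcm3 (0.57), Mcm6 (0.56), Pcna (0.48) and Mcm5 (0.41) had intervals above 0 under the fold, and Tk1 (-0.69, -1.48 to 0.08) was the exception. Of 20 mitotic members 3 were lower and 0 higher (8.13% of all genes lower): Cdc20 (-1.03), Cenpf (-0.69) and Ccnb2 (-0.66). The mitotic sum was 863 and 798 CPM (-0.11, -0.20 to -0.02). Its sign turned with the stricter cell filter (0.08), with cell cycle genes in the clustering (0.15) and with Stmn1 and Hmgb2 added (0.04), and 0 members were lower with the stricter filter or with doublets kept.

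CD8 T-like cells (137 and 233) were made of 2 clusters in different proportions, and the intervals of the mitosis-positive shares of the class overlapped. The cluster led by Klra7 and Xcl1 held 81 MOCK and 109 NAV cells, and the cluster led by Cd8a and Pdcd1 held 56 and 124. In the first, Cd8a had a UMI in 33.2% of cells, Cd3e in 74.7% and the NK marker Klrb1c in 33.7%, against 66.7%, 94.4% and 0.556% in the second. The second cluster differed between the libraries, with Cd4 in 10.7% of MOCK and 29.8% of NAV cells and Cd8a in 76.8% and 62.1%. The part of these Cd4-positive cells in the sums of the cluster was not tested. Clusters with similar leading genes (Klra7, Klra1 and Xcl1) stayed unnamed, with NK-like as the second name, under the stricter filter, with the cell cycle genes in the clustering, at Leiden resolution 2.0 and with doublets kept. The mitotic sum was lower in NAV in both clusters, at 1145 and 667 CPM in the Klra7-led one (-0.78, -1.05 to -0.52) and at 1472 and 790 CPM in the Cd8a-led one (-0.90, -1.17 to -0.62). The S-phase sums went opposite ways, at -0.45 (-0.65 to -0.24) in the Klra7-led and 0.52 (0.31 to 0.74) in the Cd8a-led cluster. The mitosis-positive shares were 8.70% and 6.93% in the first (6 and 7 cells) and 9.62% and 12.1% in the second (5 and 14 cells). In the class as a whole the S-phase sum was 1706 and 1869 CPM (0.13, -0.01 to 0.27), with 0 of 12 members lower or higher (5.93% and 3.38% of all genes). Of 12 mitotic members tested 6 were lower and 0 higher, and the mitotic sum was 1260 and 729 CPM (-0.79, -0.98 to -0.60). Ube2c had 38 UMIs in MOCK and 5 in NAV (-3.61, -5.31 to -2.26), Ccna2 39 and 14 (-2.16), Kif11 35 and 21 (-1.42), Kif15 27 and 19 (-1.19), Top2a 94 and 96 (-0.65) and Mki67 59 and 61 (-0.63). In MOCK 5 cells held 50% of the mitotic UMIs, and in NAV 9 cells did. A cluster led by Trac and Cd8a, of 133 MOCK and 70 NAV barcodes, had been removed for its doublet scores, and 61 of its barcodes were mitosis-positive before thinning. With doublets kept, the CD8 mitotic sum was at -0.17, with 3 members lower.

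NK-like cells (100 and 220) had a mitotic sum of 838 and 396 CPM (-1.08, -1.34 to -0.82), with 6 of 8 members lower and 0 higher (5.9% of all genes lower, 3.81% higher). In MOCK 2 cells held 50% of these UMIs. The S-phase sum of the class was 1478 and 1297 CPM (-0.19, -0.36 to -0.02), with 3 of 10 S-phase members lower and 0 higher, and it turned to 0.11 with equal weight per cell. gd T/T17-like cells (137 and 113) had 5 of 7 S-phase members higher in NAV and 0 lower (4.41% of all genes higher, 6.62% lower), all of them Mcm genes, from Mcm4 (1.05) to Mcm5 (2.18). There, 8 NAV cells held 50% of the S-phase UMIs. With all T, NK and innate lymphoid cells together (552 and 866), the S-phase sum was at 0.24 (0.15 to 0.32) and the mitotic sum at -0.56 (-0.68 to -0.44), with 8 of 18 mitotic members lower (7.58% of all genes) and 2 of 12 S-phase members higher (2.98%). Their mitosis-positive shares were 5.64% and 5.28%.

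Nonclassical monocyte-like cells (672 and 943) had 9 of 14 mitotic and 4 of 11 S-phase members lower and 0 higher (9.79% of all genes lower, 4.57% higher) and a mitotic sum of 214 and 122 CPM (-0.81, -0.99 to -0.63). In MOCK 11 cells held 50% of those UMIs. The sum was at 0.04 with the stricter filter and at 0.09 when clustered with the cell cycle genes, and 0 members were lower with the filter or with doublets kept. Classical monocyte-like cells had 0 of 6 mitotic and 0 of 7 S-phase members called in either direction (9.61% of all genes lower and 2.84% higher). B-like cells (1024 and 1177) had 0 of 10 mitotic members called (7.93% lower, 2.14% higher), sums of 359 and 367 CPM (0.04, -0.13 to 0.21), and 1 of 9 S-phase members higher: Pclaf, with 7 and 24 UMIs (1.41). Neutrophil-like cells had 2 members of each set tested and 0 called (7.17% lower, 5.07% higher). The Siglecf-led cluster had 1 of 2 mitotic members lower, Cenpa at -0.82, and 0 of 6 S-phase members called (7.36% of all genes lower, 8.47% higher).

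**Figure D4:**
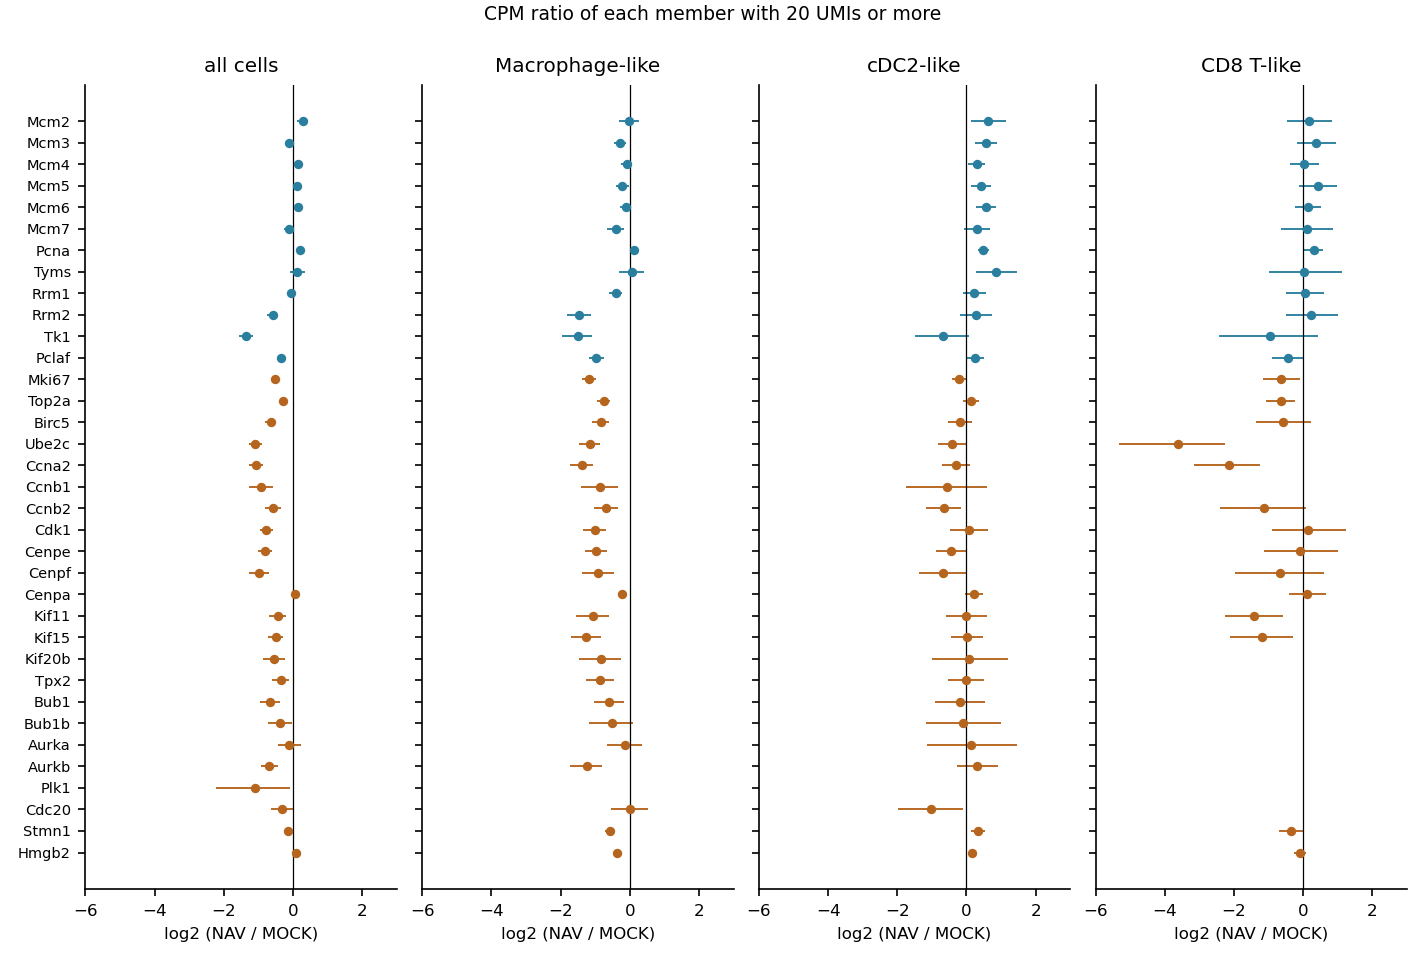
Log2 ratio of CPM, NAV to MOCK, for each member with at least 20 UMIs, in all cells and 3 classes. Lines are exact 95% intervals of counting error, blue S-phase and brown mitotic: mitotic members lie left of 0 in macrophage-like cells (median -0.86), and 11 of 12 S-phase members lie right of 0 in cDC2-like cells.

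The balance of the 2 sets inside a class does not depend on how libraries are scaled. It is given as the mitotic part of the summed S-phase and mitotic UMIs, without Pcna and Cenpa, the S-phase and the mitotic member with the largest part of their UMIs outside called cells. Over all cells it was 45.8% in MOCK (45.2% to 46.3%) and 36.8% in NAV (36.1% to 37.6%). In macrophage-like cells it was 48.4% and 38.9%, in cDC2-like cells 55.8% and 46.6%, and in Kupffer-like cells 36.2% and 26.2%. In CD8 T-like cells it was 47.1% and 30.8%, and in gd T/T17-like cells 38.8% and 13.9%, each with intervals that do not overlap. In B-like cells (31.0% and 33.5%), classical monocyte-like cells (28.8% and 32.8%) and neutrophil-like cells (51.1% and 46.2%) the intervals overlapped. With all 33 members it was 40.0% and 32.4% over all cells, 41.7% and 32.0% in macrophage-like, 50.7% and 41.9% in cDC2-like, 30.7% and 23.2% in Kupffer-like, 42.5% and 28.1% in CD8 T-like and 40.1% and 22.8% in gd T/T17-like cells, and 38.0% and 37.7% in B-like cells, where the order of the libraries turned.

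**Figure D5:**
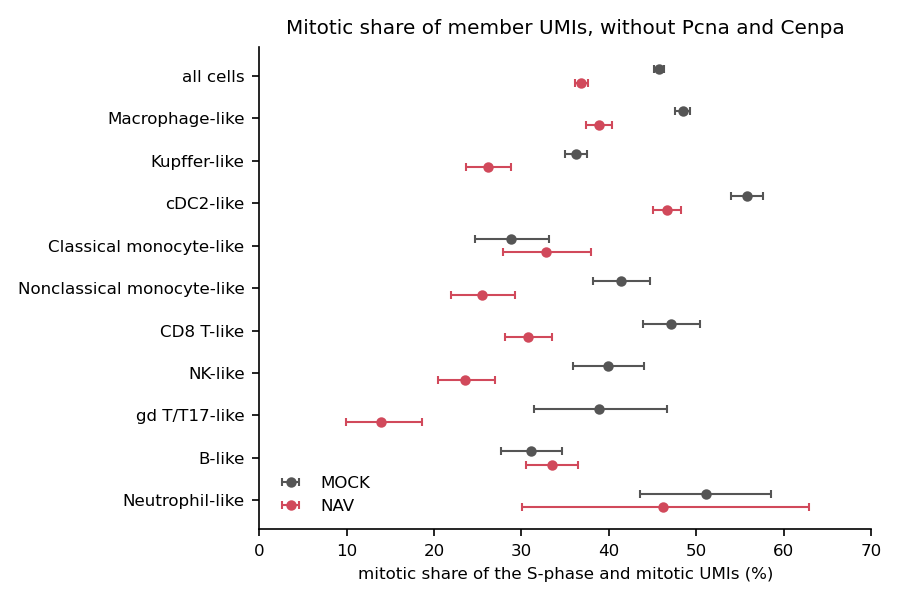
Mitotic part, in percent, of the summed S-phase and mitotic UMIs without Pcna and Cenpa, by class, in MOCK (grey) and NAV (red). Bars are exact binomial 95% intervals that treat UMIs as independent. NAV lies lower in macrophage-like (48.4% and 38.9%), Kupffer-like, cDC2-like, nonclassical monocyte-like and T and NK classes, and not in B-like cells (31.0% and 33.5%).

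Other genes of the pathway were read from lists of 120 genes, which were chosen with earlier results of these data known. Over all cells, 15 of 36 spindle, kinetochore and chromosome genes were lower in NAV and 0 higher, with a median of -0.53, against 10.9% lower and 9.42% higher among all genes. Of 28 licensing and fork genes 3 were lower and 1 higher (median -0.02, 3 of 28 being near the share of all genes), and of 15 mitotic entry and exit genes 4 were lower and 1 higher. Of 14 RB and E2F genes 1 was lower, and of 8 cyclin D and E genes with their kinases and 8 CDK inhibitors 0 were called. Chaf1b, a subunit of the histone chaperone CAF-1, was at 334 and 76 UMIs (-1.60, -1.98 to -1.24), Kif2c, a microtubule-depolymerising kinesin, at 125 and 31 (-1.48) and E2f1, the S-phase transcription factor, at 1005 and 282 (-1.30). Gadd45a, a stress-induced gene (2134 and 2689 UMIs, 0.87), Orc1, of the origin recognition complex (115 and 124, 0.64), and Cks2, a Cdk-binding protein (2815 and 2956, 0.60), were higher.

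In macrophage-like cells 21 of 36 spindle genes (median -0.79), 7 of 28 licensing and fork genes (-0.27), 5 of 14 RB and E2F genes (-0.50) and 4 of 15 entry and exit genes (-0.36) were lower, and 0 in these lists were higher, against 10.3% lower and 3.33% higher among all genes. Chaf1b (-1.83), Pold1, the catalytic subunit of polymerase delta (-1.75), and E2f1 (-1.33) led. Pold1 was in the richest GC group and stood at -1.41 after its median was subtracted. In cDC2-like cells 0 of 28 spindle genes were called, 4 of 25 licensing and fork genes were higher and 1 lower, against 4.19% higher and 8.13% lower among all genes. Mybl2, the B-Myb factor that joins MuvB, was higher at 1.90, Pole, of polymerase epsilon, at 1.27 and Uhrf1, which guides DNA methylation to new DNA, at 0.92. Pold1 (-1.27), Espl1, which encodes separase (-0.89), and the CDK inhibitor Cdkn2d (-0.66) were lower.

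Outside the members, the genes that went most with the mitotic sum from cell to cell were cell cycle genes. Over 20204 cells and 10093 genes the highest Pearson correlations were those of Cdca3 (0.36), Cks1b (0.33), Cdca8 (0.33), Spc24 (0.32), Racgap1 (0.29) and Cep55 (0.28). For the S-phase sum they were Ptma (0.33), mt-Nd1 (0.30), Tuba1b (0.29), Tubb5 (0.29), Ran (0.29) and Hsp90ab1 (0.28). These encode prothymosin, a subunit of mitochondrial complex I, tubulins, a nuclear transport GTPase and a chaperone. The 2 sums correlated at 0.25. Cells of a library share its depth, and these values are descriptions of sparse counts.

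In all, 6 members overlap a protein-coding gene on the opposite strand in the annotation: Mcm7, Tk1, Pclaf, Ube2c, Ccna2 and Cdc20. Whether the counting used strand is not given in the sources used here, so UMIs of such pairs may be shared. The partners were not lower by 1.5-fold where they had at least 20 UMIs: Exosc9 beside Ccna2 was at 0.11, Trip4 beside Pclaf at 0.06, Gm20708 and Afmid beside Tk1 at 0.22 and 0.27, and Elovl1 beside Cdc20 at -0.16. Tnnc2 beside Ube2c had 5 and 1 UMIs.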

How the data were processed

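Single-cell RNA was read in 2 BD Rhapsody libraries of CD45+ cells, 1 pooled library per group. The deposited files hold UMI counts per gene and barcode, not normalized. Per the submitters' processing notes, the authors used fastp, STARsolo 2.7.10a and Cell Ranger with mm10, and the role of each is not given in the sources used here. The tables hold 10863 MOCK and 10465 NAV barcodes with 45976676 and 31454031 UMIs.

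The cell filter required a minimum of 500 UMIs and 200 genes, with mitochondrial UMIs below 20%, and 10770 and 10441 barcodes passed. As doublets, 176 and 174 barcodes were taken out for a Scrublet score over 0.25, and 377 and 280 more because the median of their cluster exceeded 0.10. Counts were scaled to 10000, and 2000 variable genes, chosen without 391 cell cycle symbols, gave 30 components, 15 neighbours and Leiden clusters at resolution 1.0 (scanpy 1.11.5, leidenalg 0.10.2, Python 3.11.15). Clusters were named from marker lists, and names may differ from those of the study. For calls, cells were thinned to 1000 UMIs, which left out 844 and 1280 shallower cells.

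With 1 library per group there is no test and no p-value. Intervals (scipy 1.17.1) are Clopper-Pearson for shares, Poisson for levels and conditional on the summed count for ratios, all at 95%. Scripts were tested on simulated independent counts, which cannot show how the intervals hold where UMIs share a cell. All 35 members are named. Of the pathway lists, up to 3 genes per direction are named, those whose interval bound nearest to 0 was largest, over all cells and in the 2 classes with the most mitosis-positive cells, and the 6 genes most like each sum. The members and lists were chosen with earlier results of these data known. The alternatives without Cenpa or Pcna in the calls, the shares per class, the sums per cluster and the GC adjustment were added after seeing the data. Gene positions and GC came from GENCODE vM21, which held 31107 of the 31253 identifiers.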

Additional observations from a re-analysis of the deposited data

Results flagged for a closer look

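Barcodes removed as doublets are used in no comparison except those with doublets kept. In MOCK the interval of their mitosis-positive share lay above that of the neutrophil-like cells. After thinning, 24 of 542 removed MOCK barcodes were mitosis-positive (4.43%, 2.86% to 6.52%), and 9 of 447 removed NAV barcodes were (2.01%, 0.925% to 3.79%), where the interval overlaps that of the neutrophil-like cells (0.210%, 0.00531% to 1.16%). Whether these are dividing cells or mixed droplets was not tested.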

How the results depend on the processing

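Of the values recomputed under other settings, 251 were counted as the same, 73 as moved, 9 as reversed, 9 as weaker and 2 as stronger. These labels do not show every change of sign, since a ratio counted as the same or as moved can also have turned. The sign was kept in 4 of 8 settings for the all-cell S-positive share and in 2 of 9 for the Kupffer-like S-phase sum. For the B-like mitosis-positive share it was kept in 4 of 7. It was kept in 8 of 8 for the all-cell mitosis-positive share and in 9 of 9 for the macrophage-like mitotic sum. The causes were not tested. All values below are log2 ratios of NAV to MOCK unless they are counts of members.

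For the all-cell shares, the mitosis-positive ratio was -0.88 at 500 UMIs, -0.83 unthinned and -0.19 with at least 1 member. The S-positive ratio was -0.23 at 500 UMIs, 0.23 at 2000 UMIs and -0.32 unthinned. Within classes, mitosis-positive ratios moved to -0.88 in T, NK and innate lymphoid cells at 500 UMIs and to -0.999 in B-like cells without Cenpa. S-positive ratios moved in macrophage-like cells to 0.042 at 2000 UMIs and 0.052 with at least 1 member, and with at least 3 members to -0.41 in CD8 T-like and 0.85 in B-like cells.

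For the mitotic sum, equal weight per cell gave -0.41 (CD8 T-like), -0.68 (macrophage-like), -0.65 (NK-like), -0.45 (nonclassical monocyte-like) and -0.27 (T, NK and innate lymphoid). Without the member with the most UMIs it was -0.60 (all cells), 0.24 (B-like), -0.94 (macrophage-like), -1.16 (neutrophil-like), -1.60 (nonclassical), -0.77 (T, NK and innate lymphoid) and -0.78 (gd T/T17-like). With Stmn1 and Hmgb2 it was -0.14 (all cells), -0.42 (CD8 T-like), -0.21 (classical monocyte-like), -0.36 (Kupffer-like), -0.57 (macrophage-like), -0.67 (NK-like), -0.26 (nonclassical), -0.32 (T, NK and innate lymphoid) and 0.040 (cDC2-like, reversed). The stricter cell filter gave -0.47 (CD8 T-like), -0.47 (classical), 0.043 (nonclassical, reversed) and 0.082 (cDC2-like, reversed). With doublets kept it was -0.17 (CD8 T-like), -0.063 (classical), -0.75 (Kupffer-like), -0.87 (macrophage-like), -0.37 (nonclassical) and -0.42 (T, NK and innate lymphoid). Clustering with the cell cycle genes gave -0.34 (macrophage-like), 0.092 (nonclassical, reversed) and 0.15 (cDC2-like, reversed). Leiden resolution 2.0 gave -0.37 (classical), -0.29 (Kupffer-like) and -0.89 (macrophage-like). Libraries clustered separately gave -0.22 (Kupffer-like) and -1.13 (macrophage-like). Median-of-ratios scaling gave -0.50 over all cells.

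For the S-phase sum, equal weight gave 0.079 (all cells), -0.083 (macrophage-like), 0.11 (NK-like, reversed) and 0.33 (T, NK and innate lymphoid). Over all cells it reversed to -0.022 with median-of-ratios scaling and to -0.064 without Pcna. Without the member with the most UMIs it was -0.38 (macrophage-like), -0.88 (neutrophil-like), -0.55 (nonclassical) and 1.19 (gd T/T17-like). The Mcm genes alone gave 0.075 (all cells), -0.74 (neutrophil-like), -0.39 (nonclassical), 0.40 (T, NK and innate lymphoid) and 1.51 (gd T/T17-like). The stricter filter gave -0.23 (classical), -0.22 (macrophage-like) and 0.25 (nonclassical). Doublets kept gave 0.45 (CD8 T-like) and 0.27 (nonclassical). Clustering with the cell cycle genes gave 0.091 (macrophage-like, reversed) and 0.43 (nonclassical). Leiden resolution 2.0 gave -0.18 (classical), 0.30 (Kupffer-like), -0.34 (macrophage-like) and 0.66 (neutrophil-like). Separate clustering gave 0.27 (classical), -0.50 (macrophage-like), 1.43 (neutrophil-like) and 0.53 (cDC2-like).

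The number of mitotic members lower in NAV at a log2 ratio of at least 1.0 was 3 over all cells, 7 in macrophage-like, 5 in T, NK and innate lymphoid and 1 in cDC2-like cells. With doublets kept it was 3 in CD8 T-like, 10 in Kupffer-like, 0 in nonclassical and 0 in cDC2-like cells. The stricter filter gave 0 in nonclassical and 0 in cDC2-like cells, and no minimum of UMIs gave 10 in NK-like cells. The share of all genes called was not computed under these other settings, so counts of members under them, here and above, have no background beside them. No paired analysis was possible because each group has 1 library, and for the same reason no replicate could be left out. Low counts limit the classes of few cells most.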
